A study of Mus musculus with 8 samples.

Results

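Sox9, Sox8, Fgf9 and Ptgds were read from every probe set that carries 1 of these 4 symbols on an oligonucleotide array of 45101 probe sets, which gave 8 probe sets (3 of Sox9, 1 of Sox8, 2 of Fgf9 and 2 of Ptgds) for 4 of the 18193 genes with a symbol of their own. The RNA came from the testes of P28 males (postnatal day 28) of a mixed C57BL6/6J and 129 background, and every mouse, controls included, was Dmrt1 flox/flox. In the Sf1-Cre group (n = 4) Cre was driven by the promoter of Sf1, also called Nr5a1, in the group labelled Dhh-Cre (n = 2) by that of Dhh, and the control group (n = 2) had no Cre. The submitters describe both drivers as specific to Sertoli cells, the somatic cells that nurse the germ cells inside the seminiferous tubule. Samples are labelled as biological replicates, and nothing in the labels says how many animals gave each RNA.

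SOX9 is the transcription factor that directs supporting cells of the fetal gonad to become Sertoli cells, and SOX8 is a close relative that acts with it in keeping the adult tubule in order. In the fetal mouse gonad the secreted growth factor FGF9 signals through the receptor FGFR2 to keep Sox9 on. Ptgds encodes a synthase that turns prostaglandin H2 into prostaglandin D2, which helps SOX9 to enter the nucleus, while SOX9 in turn activates Ptgds, so the 3 products form loops that hold each other on. DMRT1, the factor floxed here, keeps Sertoli cells male after birth. Ptgds is also made outside Sertoli cells, among others in the epididymis.

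The upstream sequence of Sox8, Fgf9 and Ptgds is shown because these members move in different directions below. Each run is the 250 bases before a start site that RefSeq lists (GRCm38.p6), read 5′ to 3′ on the gene's own strand. Those of Fgf9 and Ptgds lie before the start of 1 transcript and within the outer limits of the gene. Capitals in the Sox8 run mark the core of a GC box, whose letters are GGGCGG. Capitals in the Ptgds run mark ATAAATA, which resembles the box that positions polymerase. Every motif was searched on both strands.
Sox8 (chr17:25570687-25570936, minus strand): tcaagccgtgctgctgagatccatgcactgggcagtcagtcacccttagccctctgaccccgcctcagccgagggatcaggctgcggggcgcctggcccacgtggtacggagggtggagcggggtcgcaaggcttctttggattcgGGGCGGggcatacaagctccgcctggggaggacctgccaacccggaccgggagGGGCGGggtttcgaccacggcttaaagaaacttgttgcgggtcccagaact
Fgf9 (chr14:58072436-58072685, plus strand): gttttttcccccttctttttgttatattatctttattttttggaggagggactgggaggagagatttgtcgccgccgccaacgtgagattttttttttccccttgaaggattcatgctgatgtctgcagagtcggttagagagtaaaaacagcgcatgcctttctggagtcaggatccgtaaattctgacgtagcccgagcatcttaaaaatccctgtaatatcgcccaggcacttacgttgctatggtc
Ptgds (chr2:25469750-25469999, minus strand): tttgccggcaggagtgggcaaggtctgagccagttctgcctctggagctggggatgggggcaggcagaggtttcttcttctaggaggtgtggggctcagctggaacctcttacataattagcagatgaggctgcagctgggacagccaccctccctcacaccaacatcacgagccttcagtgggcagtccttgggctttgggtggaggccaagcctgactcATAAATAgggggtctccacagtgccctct
The Sox8 window is 65.6% G and C and holds 2 GC boxes, the Ptgds window is 58.4% G and C and holds 1 ATAAATA, and the Fgf9 window is 44.8% G and C with none of the letters searched. Of 32851 promoter windows of this length, 32.74% hold GGGCGG and 5.172% hold ATAAATA, and both motifs were picked after these windows were seen. The letters ACAAT and ACAAAG, which SOX factors can bind, and ACATTGT, the core of the DMRT1 motif, are in none of the 3 windows, against 27.66%, 16.46% and 2.557% of all windows. ACAAT read on the other strand lies within ACATTGT. A match is a run of letters, and no match says only that the letters are not in the window. Sox9 itself is at chr11:112782210-112787757.

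Values below are log2 of the intensity the authors deposited, and the floor was set at log2 4 (intensity 16). Tests ran on the 25761 probe sets with 2 or more arrays at or above it. Adjusted p-values are limma's, over all of these, and pass under 0.05. Dmrt1 goes against 1 label: its log2 level was 7.10, 7.89, 7.63 and 7.53 in the Sf1-Cre arrays, 10.43 and 9.94 in the Dhh-Cre-labelled arrays and 8.50 and 8.76 in the controls. It was lower in Sf1-Cre (log2 fold change -1.09, adjusted p = 0.00368) but higher in the Dhh-Cre-labelled arrays (1.55, adjusted p = 0.00117), a difference of 0.33 (adjusted p = 0.340) with arrays centred on Sertoli markers by gene deviations, so each direction for that group rests on its label. The sources used here do not place the Dmrt1 probe set relative to the deleted part. Most probe sets moved: 77.6% of those tested passed in Sf1-Cre against control and 78% in the Dhh-Cre-labelled arrays against control, with a median log2 change over all of 0.36 and 0.57, while 21.4% passed between the Cre groups. Centring by gene deviations shifts this background. Of the 25761 tested, 6811 were then higher and 12295 lower in Sf1-Cre on housekeeping genes, and 6946 and 11800 on Sertoli markers. In the Dhh-Cre-labelled arrays these were 7692 and 10328, then 4885 and 12746. Gene counts after this centring are to be read beside these. The 18 spermatid markers summed to 2638 to 10696 intensity units in the Sf1-Cre arrays and 1664 to 13522 in those labelled Dhh-Cre, against 99891 to 109501 in the controls. The 23 measured Sertoli markers summed to 53727 to 58253 in Sf1-Cre and 71210 to 72278 in the Dhh-Cre-labelled arrays, against 39629 to 40352 in the controls, and Amh among them was under the floor on all 8 arrays. The Sertoli list did not move as one: of 21 tested, 13 were higher and 4 lower than control in Sf1-Cre, and 19 were higher in the Dhh-Cre-labelled arrays, where the other 2 did not pass. The 4 lower in Sf1-Cre, named after their values were seen, were Tsx (74.3-fold), Rhox5, a homeobox gene (at least 16.3-fold), Cst9 (2.24-fold) and Hopx. In the Dhh-Cre-labelled arrays Tsx was 1.84-fold higher than control (adjusted p = 0.0245), and Rhox5 and Cst9 differed from control by 0.45 and 0.28 on the log2 scale (adjusted p = 0.292 and 0.314). The 3′ to 5′ signal ratio of Actb, read as a sign of RNA quality, was 9.45 to 13.5 in Sf1-Cre, 9.51 and 13.6 in the Dhh-Cre-labelled arrays, and 4.44 and 4.89 in the controls. That of Gapdh ran the other way, at 1.67 to 2.34 in Sf1-Cre and 1.90 and 3.30 in the Dhh-Cre-labelled arrays, against 2.96 and 3.58 in the controls.

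Sox9 was higher in the Dhh-Cre-labelled arrays than in either other group. Its probe set 1451538_at had a log2 level of 5.88, 6.87, 6.76 and 6.56 in the Sf1-Cre arrays, 8.37 and 8.58 in the Dhh-Cre-labelled arrays, and 5.45 and 5.94 in the controls. In intensity this is 58.7 to 117 units in Sf1-Cre, 330 and 383 in the Dhh-Cre-labelled arrays, and 43.6 and 61.3 in the controls. Both Dhh-Cre-labelled arrays stand above all others, and Sf1-Cre replicate 1 lies below control replicate 2, so the Sf1-Cre and control groups overlap. Against control the log2 fold change was 2.78 ± 0.34 SE in the Dhh-Cre-labelled arrays (6.88-fold, limma adjusted p = 0.000115). It was 0.82 ± 0.29 SE in Sf1-Cre (1.77-fold, adjusted p = 0.0301). Sf1-Cre was 3.89-fold lower than the Dhh-Cre-labelled arrays (-1.96 ± 0.29 SE, adjusted p = 0.00383). In whole testis, fewer cells of a type and less RNA per cell cannot be told apart, and the lower spermatid sum, the higher Sertoli sum and the Sertoli markers that were lower in Sf1-Cre stand beside these differences. Their part in them was not tested.

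The rise of Sox9 in Sf1-Cre is the least settled of these 3 differences. With each array centred on 13 housekeeping genes, by the median of their deviations from their own means, it was 0.018 (adjusted p = 0.957), and with the same centring on 21 Sertoli markers it was 0.074 (adjusted p = 0.831). It missed the threshold without Sf1-Cre replicate 2 (0.70, adjusted p = 0.0653), replicate 3 (0.74, adjusted p = 0.0687) or replicate 4 (0.81, adjusted p = 0.0526), and without control replicate 1 (0.58, adjusted p = 0.211). Under the same centrings the difference in the Dhh-Cre-labelled arrays was 2.03 and 1.56 against control, and that between Sf1-Cre and those arrays was -2.01 and -1.48, all past the threshold. Centring on the median level, as planned, reversed the Sf1-Cre difference from control. It was then -0.87 (housekeeping, limma adjusted p = 0.0223) and -1.35 (Sertoli, adjusted p = 0.00153). The other Sox9 probe sets, 1433889_at and 1424950_at, were under the floor on every array, at log2 2.14 to 2.45 and 1.42 to 1.59 in Sf1-Cre, 2.33 to 2.46 and 1.63 to 1.88 in the Dhh-Cre-labelled arrays, and 2.18 to 2.30 and 1.54 to 1.71 in the controls, and were not tested.

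**Figure D1:**
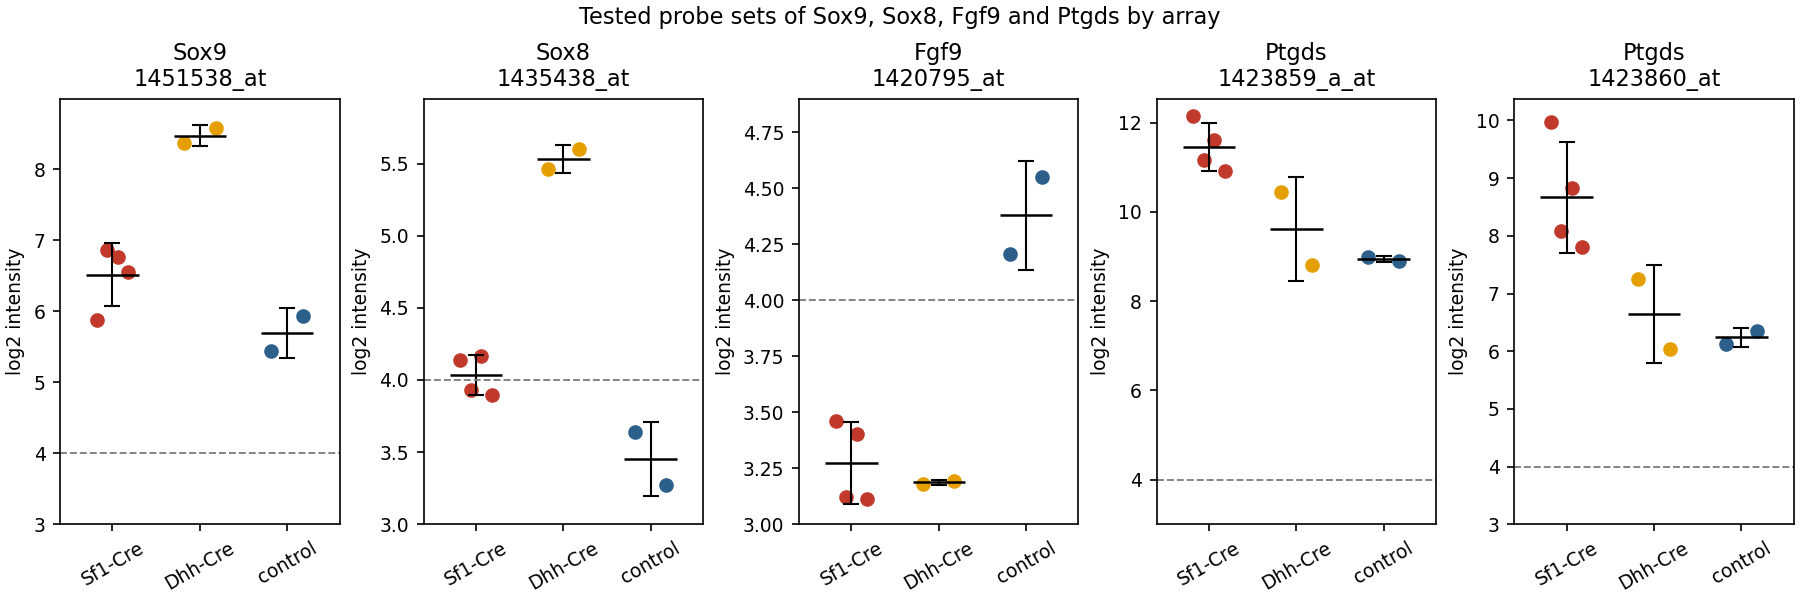
Log2 intensity of the 5 tested probe sets of Sox9, Sox8, Fgf9 and Ptgds on each array (points), with group mean (bar) and SD (whiskers), for Sf1-Cre (n = 4), the Dhh-Cre-labelled arrays (n = 2) and control (n = 2). The dashed line is the floor at log2 4. Sox9 and Sox8 are highest in the Dhh-Cre-labelled arrays, Fgf9 is above the floor in the controls alone, and Ptgds is highest in Sf1-Cre.

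Sox8 had the same order of groups at a far dimmer probe set. The log2 level of 1435438_at was 4.14, 3.93, 4.17 and 3.90 in the Sf1-Cre arrays, 5.46 and 5.60 in the Dhh-Cre-labelled arrays, and 3.64 and 3.27 in the controls. The 3 groups do not overlap, but the Sf1-Cre arrays straddle the floor and both controls are under it. Sox8 was therefore at least 2.89-fold higher in the Dhh-Cre-labelled arrays than in control (log2 fold change 2.08 ± 0.19 SE, adjusted p = 3.05e-05). In Sf1-Cre the difference from control was 0.58 ± 0.17 SE (adjusted p = 0.0126), a bound of at least 1.02-fold. Sf1-Cre was 2.82-fold lower than the Dhh-Cre-labelled arrays (-1.50 ± 0.17 SE, adjusted p = 0.00128). The Sf1-Cre difference from control turned to -0.22 with housekeeping centring and -0.17 with Sertoli centring by gene deviations, neither past the threshold, was 0.078 (adjusted p = 0.512) with values under the floor set to it, and was 0.40 (adjusted p = 0.119) without control replicate 2. The difference of the Dhh-Cre-labelled arrays from control stayed at 1.32 and 0.85 under the same centrings, both past the threshold. Centring on the median level, as planned, reversed the Sf1-Cre difference from control. It was then -1.12 (housekeeping, limma adjusted p = 0.000721) and -1.59 (Sertoli, adjusted p = 0.000121).

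Sox10, the remaining gene of the SoxE group that Sox8 and Sox9 form and known from neural crest and Schwann cells, lay at log2 3.49, 3.12, 3.24 and 3.05 in Sf1-Cre, 5.82 and 4.15 in the Dhh-Cre-labelled arrays, and 3.99 and 3.87 in the controls. Only the Dhh-Cre-labelled arrays reach the floor, so Sox10 entered the tests through that group alone, and replicate 1 stands well above replicate 2. Of the 18 Sox family genes listed besides these members, 11 were tested. In Sf1-Cre 4 were higher and 5 lower than control, with a median log2 change of -0.55 against 0.36 over all tested probe sets, of which 45.9% were higher and 31.6% lower. In the Dhh-Cre-labelled arrays 3 were higher and 4 lower, with a median of -0.014 against 0.57, beside 49.1% higher and 28.8% lower of all. The count of lower Sox genes was 3 in Sf1-Cre and 2 in the Dhh-Cre-labelled arrays without control replicate 2, and in the Dhh-Cre-labelled arrays also 2 without Dhh-Cre replicate 1. Sox5, whose product lacks a transactivation domain and partners with SOX9 in cartilage, was at least 11.0-fold lower in Sf1-Cre (-3.63 ± 0.19 SE, adjusted p = 1.41e-06) and at least 11.2-fold lower in the Dhh-Cre-labelled arrays (-3.77 ± 0.22 SE, adjusted p = 3.73e-06). Sox4, a SoxC factor, was 7.62-fold higher in Sf1-Cre (2.93 ± 0.36 SE, adjusted p = 0.00012) and 3.25-fold higher in the Dhh-Cre-labelled arrays (1.70 ± 0.41 SE, adjusted p = 0.00545), the second no longer passing with either centring by gene deviations (0.95 and 0.48). The other tested Sox4 probe sets were 0.92 to 2.44 higher in Sf1-Cre and 1.25 to 2.19 in the Dhh-Cre-labelled arrays. Most of them had the larger change in the Dhh-Cre-labelled arrays. Sox12 and Sox13 were higher in both Cre groups, by 2.76 and 2.36 in Sf1-Cre and 2.27 and 2.79 in the Dhh-Cre-labelled arrays on the log2 scale.

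Fgf9, encoding the secreted ligand of the loop, was lower in both Cre groups, though its signal is close to the floor everywhere. Probe set 1420795_at had a log2 level of 3.46, 3.12, 3.40 and 3.11 in the Sf1-Cre arrays, 3.18 and 3.20 in the Dhh-Cre-labelled arrays, and 4.21 and 4.55 in the controls. All 6 Cre arrays are under the floor and both controls are above it, while the Cre groups overlap. The probe set thus entered the tests through the controls alone, the group where it is high. Each Cre group was at least 1.30-fold lower than control, with a log2 fold change of -1.10 ± 0.17 SE in Sf1-Cre (adjusted p = 0.000522) and -1.19 ± 0.20 SE in the Dhh-Cre-labelled arrays (adjusted p = 0.00076). Both falls kept their sign in each of 22 alternatives, at log2 -3.27 to -0.38 in Sf1-Cre and -3.37 to -0.38 in the Dhh-Cre-labelled arrays. The alternatives are refits of the same arrays and do not undo that way of entering the tests. Between the Cre groups the difference was 0.088 ± 0.17 SE (adjusted p = 0.758), with both means under the floor. The other probe set, 1438718_at, was at log2 2.00 to 2.22 in Sf1-Cre, 2.01 and 2.13 in the Dhh-Cre-labelled arrays, and 2.13 and 2.33 in the controls, and was not tested. Spermatid markers, given above, were also lower in both Cre groups, and their part in the fall of Fgf9 was not tested.

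Ptgds showed another order of groups, with the highest level in Sf1-Cre. Probe set 1423859_a_at had a log2 level of 12.15, 11.15, 11.61 and 10.93 in the Sf1-Cre arrays, 10.44 and 8.80 in the Dhh-Cre-labelled arrays, and 8.99 and 8.90 in the controls. Every Sf1-Cre array is above every other array, and the Dhh-Cre-labelled arrays lie on either side of the controls. In intensity the Sf1-Cre arrays reached 1946 to 4540 units, the Dhh-Cre-labelled arrays 1390 and 446, and the controls 508 and 479. Ptgds was 5.71-fold higher in Sf1-Cre than in control (2.51 ± 0.47 SE, adjusted p = 0.00138) and 3.58-fold higher than in the Dhh-Cre-labelled arrays (1.84 ± 0.47 SE, adjusted p = 0.029). The Dhh-Cre-labelled arrays differed from control by 0.67 ± 0.55 SE (adjusted p = 0.282), which does not show that they are alike, and by -0.080 with housekeeping and -0.55 with Sertoli centring by gene deviations.

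The second Ptgds probe set, 1423860_at, gave the same order. Its log2 level was 9.97, 8.08, 8.82 and 7.80 in the Sf1-Cre arrays, 7.25 and 6.04 in the Dhh-Cre-labelled arrays, and 6.13 and 6.35 in the controls. The Sf1-Cre arrays again lie above all others. The log2 fold change was 2.43 ± 0.59 SE in Sf1-Cre against control (5.38-fold, adjusted p = 0.00541), 0.41 ± 0.68 SE in the Dhh-Cre-labelled arrays against control (adjusted p = 0.597), and 2.02 ± 0.59 SE between the Cre groups (4.06-fold, adjusted p = 0.0448).

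Ptgds varied within groups together with Spink8, a gene of the epididymis. Spink8 lay at log2 12.05, 5.79, 10.49 and 6.46 in the Sf1-Cre arrays, 11.55 and 4.48 in the Dhh-Cre-labelled arrays, and 6.87 and 3.11 in the controls. The 3 arrays whose Spink8 level reached log2 10 (Sf1-Cre replicates 1 and 3, Dhh-Cre replicate 1) are also those with the most Ptgds in their group. The 12 measured epididymal markers summed to 133 to 4448 intensity units in Sf1-Cre, 109 and 3285 in the Dhh-Cre-labelled arrays, and 95.1 and 208 in the controls, with 4 of 12 tested and Lcn5, Lcn8 and Gpx5 under the floor. Most of the sum in those 3 arrays is Spink8 itself, at 4250 of 4448, 1435 of 1527 and 3001 of 3285 units. The median log2 level of the list was 2.92, 2.34 and 2.55 in those 3 arrays and 2.19 to 2.76 in the others. Adam7, also on the list, lay at log2 6.72, 3.72 and 7.59 in those 3 arrays and 1.92 to 2.58 in the others. Lcn5 lay at 3.59, 2.39 and 3.96 against 2.05 to 2.30, and Gpx5 at 1.48, 1.58 and 1.32 against 1.49 to 1.97. Without those 3 arrays, a choice made after seeing the data, Ptgds 1423859_a_at was still higher in Sf1-Cre than in control, by 2.09. It was also higher there than in the remaining Dhh-Cre-labelled array, by 2.24. That array was -0.15 from control, and a lone array gives no spread of its own. With Dhh-Cre replicate 2 left out instead, the remaining Dhh-Cre-labelled array was 1.49 above control, and the difference between the Cre groups was 1.02. The difference between the Cre groups missed the threshold without Sf1-Cre replicate 3 (1.79, adjusted p = 0.0657) and with only those 2 groups fitted (1.84, adjusted p = 0.0545). Leaving out either control gives that same fit. At the second probe set it was lost without Sf1-Cre replicate 2 or 3, or without any 1 Dhh-Cre-labelled array or control (adjusted p from 0.0551 to 0.243). Leydig markers, of steroid-making cells between the tubules, summed to 22891 to 31042 in Sf1-Cre and 19654 and 24883 in the Dhh-Cre-labelled arrays, against 5766 and 6647 in the controls, and macrophage markers to 30325 to 35263 and 24646 and 24773, against 4528 and 4849. Their part in the Ptgds difference was not tested.

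**Figure D2:**
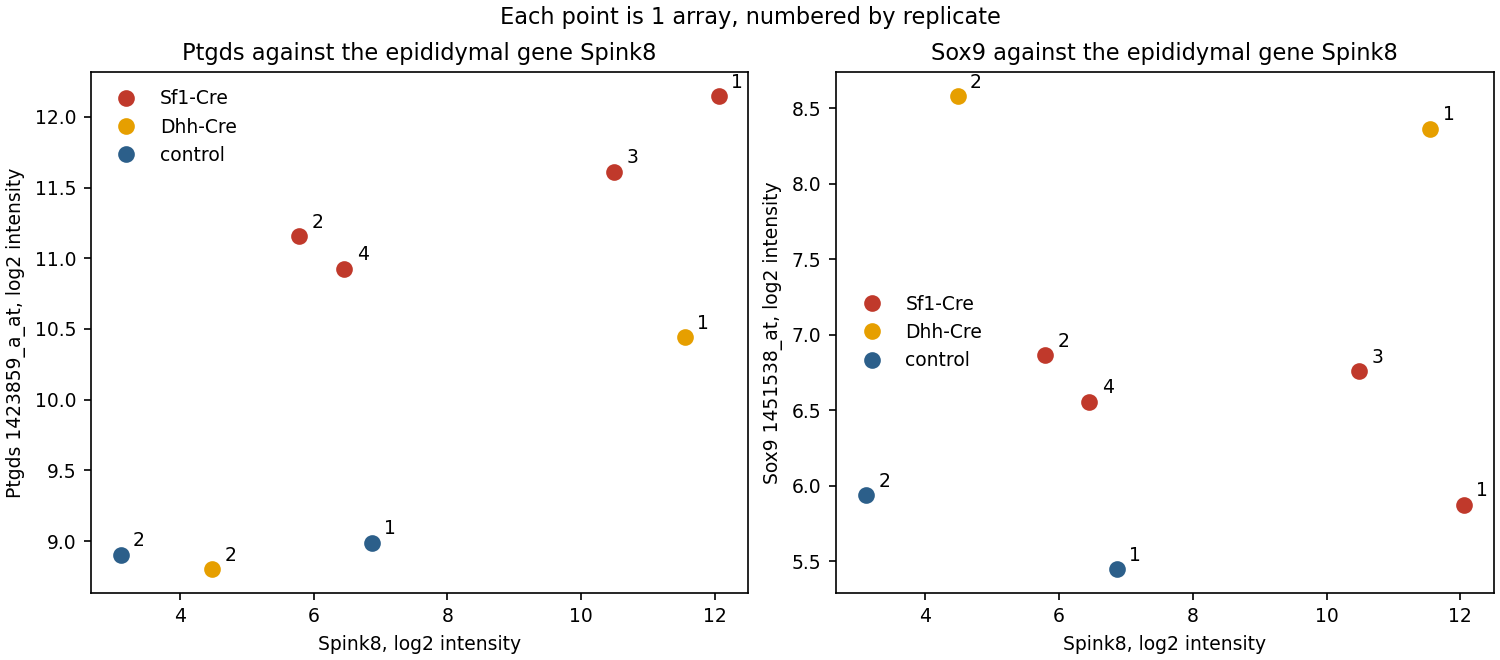
Log2 intensity of Ptgds 1423859_a_at (left) and of Sox9 1451538_at (right) against that of the epididymal gene Spink8, with 1 point per array, numbered by replicate and coloured by group. Within Sf1-Cre and within the Dhh-Cre-labelled arrays, arrays whose Spink8 reached log2 10 have the most Ptgds, but not the most Sox9.

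Without the same 3 arrays Sox9 was 1.02 above control in Sf1-Cre (adjusted p = 0.0129), 2.89 above control in the remaining Dhh-Cre-labelled array, and 1.87 lower in Sf1-Cre than in that array. Sox8 in Sf1-Cre was 0.46 above control and no longer passed (adjusted p = 0.107), and Fgf9 was lower than control by 1.26 in Sf1-Cre and 1.18 in the remaining Dhh-Cre-labelled array.

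Read together, all 5 tested probe sets passed in Sf1-Cre against control, 4 higher and 1 lower, beside 77.6% of all tested probe sets (45.9% higher, 31.6% lower). In the Dhh-Cre-labelled arrays against control 3 of 5 passed, 2 higher and 1 lower, beside 78% (49.1% higher, 28.8% lower). Between the Cre groups 4 of 5 passed, 2 higher and 2 lower, beside 21.4% (10.2% higher, 11.2% lower). The comparisons with control share the same 2 control arrays. On the log2 scale Sox9 changed by 0.82 in Sf1-Cre and 2.78 in the Dhh-Cre-labelled arrays, Sox8 by 0.58 and 2.08, Fgf9 by -1.10 and -1.19, and Ptgds by 2.51 and 0.67. Sox9 and Sox8 thus were lower, and Ptgds higher, in Sf1-Cre than in the Dhh-Cre-labelled arrays, and Fgf9 did not pass there.

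**Figure D3:**
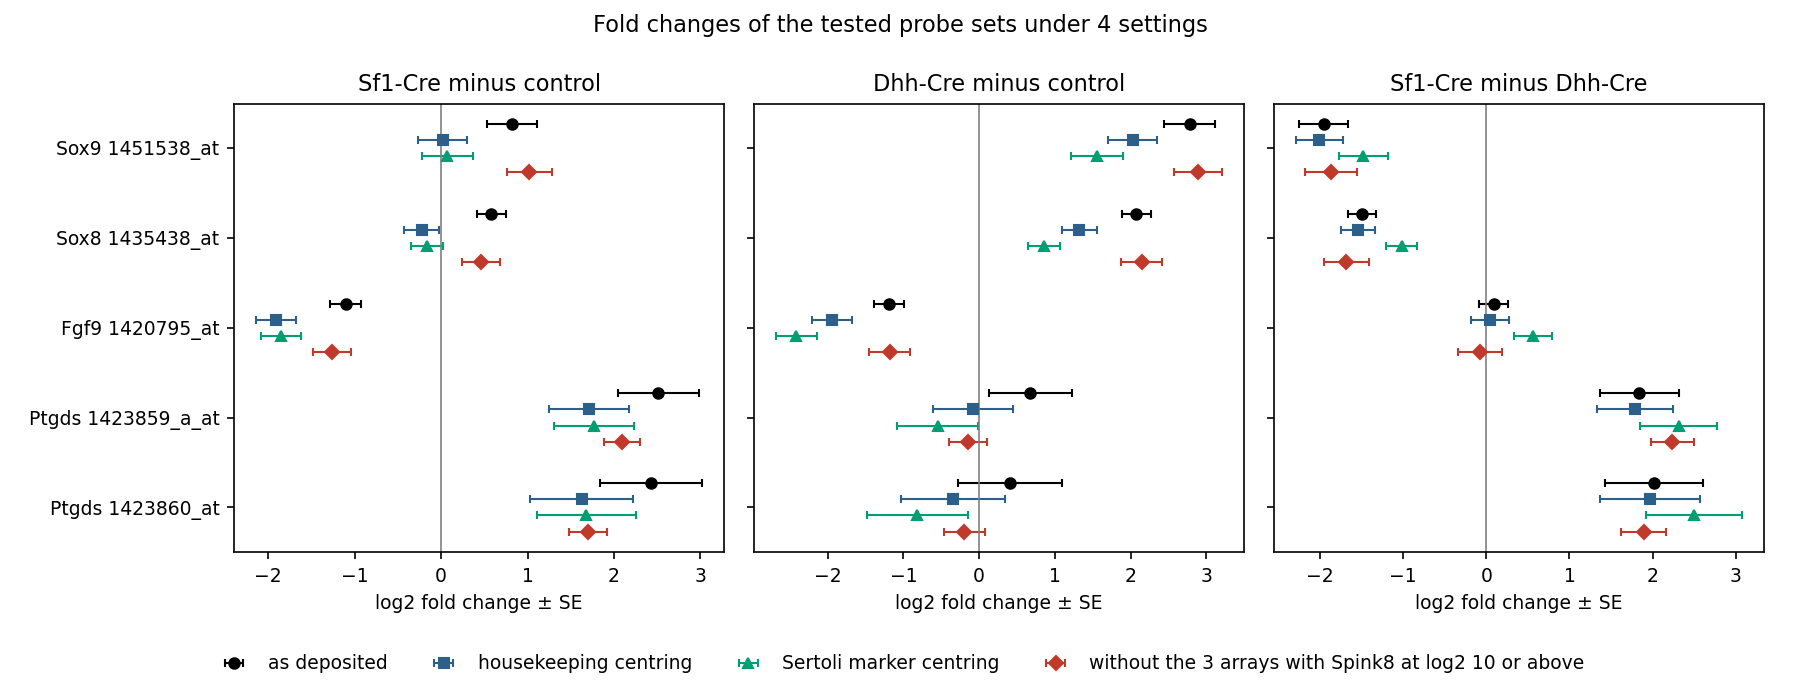
Log2 fold change ± SE of the 5 tested probe sets in the 3 comparisons, as deposited, with arrays centred on housekeeping or Sertoli markers by gene deviations, and without the 3 arrays whose Spink8 reached log2 10. The Sf1-Cre changes of Sox9 and Sox8 from control lie near 0 after centring by gene deviations, while the differences of Sox9, Sox8 and Ptgds between the Cre groups keep their sides in all 4 settings. Centring on the median level, not drawn, turned these Sf1-Cre changes of Sox9 and Sox8 negative, past the threshold.

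Genes that act before Sox9 in the fetal gonad were mostly higher in both Cre groups. Of 12 tested, 8 were higher and 1 lower in Sf1-Cre, with a median of 1.11, and 10 were higher and 1 lower in the Dhh-Cre-labelled arrays, with a median of 1.77, beside 0.36 and 0.57 over all tested probe sets. Dmrt1, the floxed gene itself, is on this list. It is the 1 lower in Sf1-Cre and is among the 10 higher in the Dhh-Cre-labelled arrays, where it goes against the label. All tested probe sets were higher at 45.9% and 49.1%. Centring by gene deviations lowered the higher ones to 5 in Sf1-Cre on either list and to 6 in the Dhh-Cre-labelled arrays on Sertoli markers, and raised the lower ones to 2 in both groups on either list. Gata4, a zinc-finger factor of gonadal somatic cells, was 23.3-fold higher in Sf1-Cre (4.54 ± 0.26 SE, adjusted p = 2.33e-06) and 17.6-fold higher in the Dhh-Cre-labelled arrays (4.14 ± 0.31 SE, adjusted p = 1.02e-05). Nr5a1, the nuclear receptor gene whose promoter drives the Cre of the Sf1-Cre mice, was 15.5-fold higher in Sf1-Cre (3.96 ± 0.24 SE, adjusted p = 3.05e-06) and 8.22-fold higher in the Dhh-Cre-labelled arrays (3.04 ± 0.28 SE, adjusted p = 2.94e-05). Its level is also that of the Leydig cells that express it. Wt1, a Sertoli zinc-finger factor, rose by 0.82 in Sf1-Cre and 1.25 in the Dhh-Cre-labelled arrays, and by 0.068 and 0.029 with Sertoli centring by gene deviations, neither past the threshold. Wt1 is itself 1 of the 21 markers of that centring, which pulls its change toward 0, so these centred values say little about Wt1.

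Genes listed as targets of SOX9 and SOX8 did not follow 1 direction. Of 10 tested, 4 were higher and 1 lower in Sf1-Cre, with a median of 0.65, and 6 were higher and 2 lower in the Dhh-Cre-labelled arrays, with a median of 1.14. Over all tested probe sets 45.9% were higher and 31.6% lower in Sf1-Cre and 49.1% and 28.8% in the Dhh-Cre-labelled arrays, so 4 of 10 higher is near the background. With either centring by gene deviations 4 were lower in Sf1-Cre and 3 higher in the Dhh-Cre-labelled arrays. Of all 25761 tested probe sets, 12295 (housekeeping) and 11800 (Sertoli) were then lower in Sf1-Cre, so 4 of 10 is not above that background. In the Dhh-Cre-labelled arrays 7692 and 4885 of all were then higher. Left without Sf1-Cre replicate 1, or without either Dhh-Cre-labelled array, the lower count in Sf1-Cre was 2. Ptgds itself is on this list. Tesc, encoding the calcium-binding protein tescalcin, was 15.2-fold higher in Sf1-Cre (3.93 ± 0.17 SE, adjusted p = 6.86e-07) and 31.3-fold higher in the Dhh-Cre-labelled arrays (4.97 ± 0.20 SE, adjusted p = 1.11e-06). Vnn1, encoding a pantetheinase of Sertoli cells, was 19.4-fold and 17.0-fold higher. Col2a1, the cartilage collagen gene that SOX9 activates in chondrocytes, was 6.78-fold lower in Sf1-Cre and at least 7.94-fold lower in the Dhh-Cre-labelled arrays. Cyp26b1, which breaks down retinoic acid, lay at log2 4.06 to 4.46 in Sf1-Cre, 4.97 and 5.88 in the Dhh-Cre-labelled arrays, and 3.71 and 4.11 in the controls, and was at least 2.59-fold higher in the Dhh-Cre-labelled arrays (adjusted p = 0.00195), a call lost with either centring by gene deviations (0.77 and 0.30). Amh, a classic target of SOX9 in the fetal testis, gave 2.81 to 3.41, 3.73 and 3.95, and 2.46 and 2.52 in these groups, all under the floor.

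On the receiving side of FGF9, the receptor genes parted. Fgfr2, encoding the receptor that takes the FGF9 signal in the fetal gonad, lay at log2 9.31 to 10.13 in Sf1-Cre and 9.11 and 10.02 in the Dhh-Cre-labelled arrays, against 5.40 and 5.07 in the controls. The groups do not overlap with control, and the differences were 22.8-fold in Sf1-Cre (4.51 ± 0.31 SE, adjusted p = 4.77e-06) and 20.2-fold in the Dhh-Cre-labelled arrays (4.33 ± 0.35 SE, adjusted p = 1.58e-05). Fgfr1 was 12.4-fold and 16.8-fold higher. Fgfr3 averaged log2 4.86 in Sf1-Cre, 5.06 in the Dhh-Cre-labelled arrays and 4.83 in the controls, and Fgfr4 4.30, 3.54 and 4.33, and neither passed against control. These calls turn with the processing: with centring by gene deviations Fgfr3 was lower by 0.78 (housekeeping) and 0.72 (Sertoli) in Sf1-Cre and by 0.52 and 0.99 in the Dhh-Cre-labelled arrays, all past the threshold. Fgfr4 in the Dhh-Cre-labelled arrays was lower by 0.79 (adjusted p = 0.0529), by 1.54 and 2.01 after the same centrings, and passed without Sf1-Cre replicate 2 or 4 or Dhh-Cre replicate 2 (adjusted p from 0.0188 to 0.0471). Sdc2, encoding a heparan sulfate proteoglycan that can present FGFs, was 21.4-fold and 13.3-fold higher at its brightest probe set, but its probe sets disagree. Probe set 1417012_at was lower, by 2.06 and 2.71 on the log2 scale, and 1448545_at was 2.08 higher in Sf1-Cre (adjusted p = 0.0156) and 0.69 above control in the Dhh-Cre-labelled arrays (adjusted p = 0.405). Of 11 receptors and co-receptors tested, 6 were higher and 1 lower in Sf1-Cre and 5 were higher and 1 lower in the Dhh-Cre-labelled arrays. The higher counts are near the 45.9% and 49.1% of all tested probe sets, and the lower ones under the 31.6% and 28.8%. The lower count rose to 2 in the Dhh-Cre-labelled arrays without Sf1-Cre replicate 2 or 4 or without Dhh-Cre replicate 2, and to 4 in Sf1-Cre and 5 in the Dhh-Cre-labelled arrays with housekeeping centring by gene deviations. Sertoli centring gave 3 lower in Sf1-Cre, and 3 higher and 5 lower in the Dhh-Cre-labelled arrays.

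Only 6 of 18 other FGF ligand genes were tested, with 3 higher and 3 lower in each Cre group, beside 45.9% and 31.6% of all in Sf1-Cre and 49.1% and 28.8% in the Dhh-Cre-labelled arrays. Either centring by gene deviations left 1 higher in Sf1-Cre. Fgf1, encoding a ligand of all FGF receptors, was at least 3.72-fold higher in Sf1-Cre and in the Dhh-Cre-labelled arrays (3.23 and 3.24). Fgf12 and Fgf14, which encode intracellular FGFs that bind sodium channels, were lower, by 3.59 and 2.93 in Sf1-Cre and 3.97 and 3.82 in the Dhh-Cre-labelled arrays. Genes that FGF signalling induces were higher at 6 of 8 in each Cre group, with medians of 1.22 and 1.45. The background was 45.9% and 49.1%. Under housekeeping centring by gene deviations 3 were higher and 1 lower in each, and under Sertoli centring 3 and 2 were higher and 1 lower in each. Spry2, an inhibitor of FGF receptor signalling, was higher by 3.17 in Sf1-Cre and 2.19 in the Dhh-Cre-labelled arrays on the log2 scale. Spry4, a relative of Spry2, was 1.79-fold higher in Sf1-Cre (0.84 ± 0.25 SE, adjusted p = 0.0141) and 2.55-fold higher in the Dhh-Cre-labelled arrays (1.35 ± 0.29 SE, adjusted p = 0.00272), calls lost with either centring by gene deviations and, in Sf1-Cre, without control replicate 1 (0.50, adjusted p = 0.149). Spred1, another inhibitor, was 6.93-fold and 5.29-fold higher, and Dusp6, a phosphatase of ERK, 2.71-fold and 3.17-fold. Etv5, an ETS factor of Sertoli cells that FGF signalling induces, averaged log2 6.17 in Sf1-Cre, 6.79 in the Dhh-Cre-labelled arrays and 5.25 in the controls. Its difference passed in the Dhh-Cre-labelled arrays (adjusted p = 0.0201), though not without Dhh-Cre replicate 2 (0.81, adjusted p = 0.133) or control replicate 2 (1.22, adjusted p = 0.121), and in Sf1-Cre it was 0.92 (adjusted p = 0.0795) and passed without either Dhh-Cre-labelled array (adjusted p = 0.0277).

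Around Ptgds, most genes of prostaglandin synthesis and turnover were higher. Of 12 tested, 11 were higher and none lower in Sf1-Cre, with a median of 2.33, and 9 were higher and none lower in the Dhh-Cre-labelled arrays, with a median of 1.58, beside 45.9% and 49.1% of all tested probe sets higher. Housekeeping centring by gene deviations made 1 lower in Sf1-Cre. Sertoli centring by gene deviations left 5 higher and 2 lower in the Dhh-Cre-labelled arrays. Pla2g4a, which frees arachidonic acid from membranes, was at least 1.86-fold higher in Sf1-Cre and at least 1.33-fold higher in the Dhh-Cre-labelled arrays. Ptgs2, the inducible cyclooxygenase that makes prostaglandin H2, was under the floor on all arrays, at means of 2.16 in Sf1-Cre, 1.90 in the Dhh-Cre-labelled arrays and 1.92 in the controls. Ptgs1, the constitutive cyclooxygenase, was not analysed here. Hpgds, the other prostaglandin D synthase and known from mast cells and macrophages, lay at log2 3.95, 4.47, 4.34 and 4.20 in Sf1-Cre, 2.92 and 3.53 in the Dhh-Cre-labelled arrays, and 2.80 and 2.64 in the controls. The Sf1-Cre arrays are above all others, and Hpgds was at least 1.18-fold higher there than in control (adjusted p = 0.000301). Only Sf1-Cre arrays reach the floor, so Hpgds entered the tests through that group alone. In the Dhh-Cre-labelled arrays the difference was 0.51 (adjusted p = 0.0977), and 0.81 without Dhh-Cre replicate 1 (adjusted p = 0.0286), and it was -0.25 and -0.72 after the centrings by gene deviations, the second past the threshold (adjusted p = 0.0286). Macrophage markers, given above, were higher in both Cre groups.

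Of the genes of other prostaglandin branches named here, Ptges, Hpgd and Ptgr1 were higher in both Cre groups, also where Ptgds did not pass. Tbxas1 passed in Sf1-Cre but not in the Dhh-Cre-labelled arrays. Ptges, the synthase of prostaglandin E2, was 11.8-fold higher in Sf1-Cre (3.56 ± 0.29 SE, adjusted p = 1.19e-05) and 6.93-fold higher in the Dhh-Cre-labelled arrays (2.79 ± 0.33 SE, adjusted p = 0.000105). Tbxas1, the thromboxane synthase, was 4.85-fold higher in Sf1-Cre (adjusted p = 0.000351). It was 0.91 above control in the Dhh-Cre-labelled arrays (adjusted p = 0.0604), and passed there without Sf1-Cre replicate 4 (adjusted p = 0.0426) or control replicate 2 (1.38, adjusted p = 0.0206). Hpgd, which inactivates prostaglandins, was 20.5-fold and 11.5-fold higher, and Ptgr1, which acts after it, 6.22-fold and 7.78-fold. The receptors of prostaglandin D2, Ptgdr and Ptgdr2, were under the floor in every group mean, at log2 2.20 and 1.57 in Sf1-Cre, 2.09 and 1.63 in the Dhh-Cre-labelled arrays, and 3.88 and 2.01 in the controls. Of 5 prostaglandin receptors tested, 4 were higher in Sf1-Cre, among them those of prostaglandin E2, Ptger4 (4.59-fold) and Ptger2 (at least 2.59-fold). Of the same 5, 2 were higher in the Dhh-Cre-labelled arrays, Ptger4 (2.64-fold, not past the threshold with either centring by gene deviations) and Ptger2 (at least 1.63-fold), and 4 without Sf1-Cre replicate 4. All tested probe sets were higher at 45.9% and 49.1%. With either centring by gene deviations 2 receptors were higher in Sf1-Cre, and 1 was higher and 1 lower in the Dhh-Cre-labelled arrays.

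**Figure D4:**
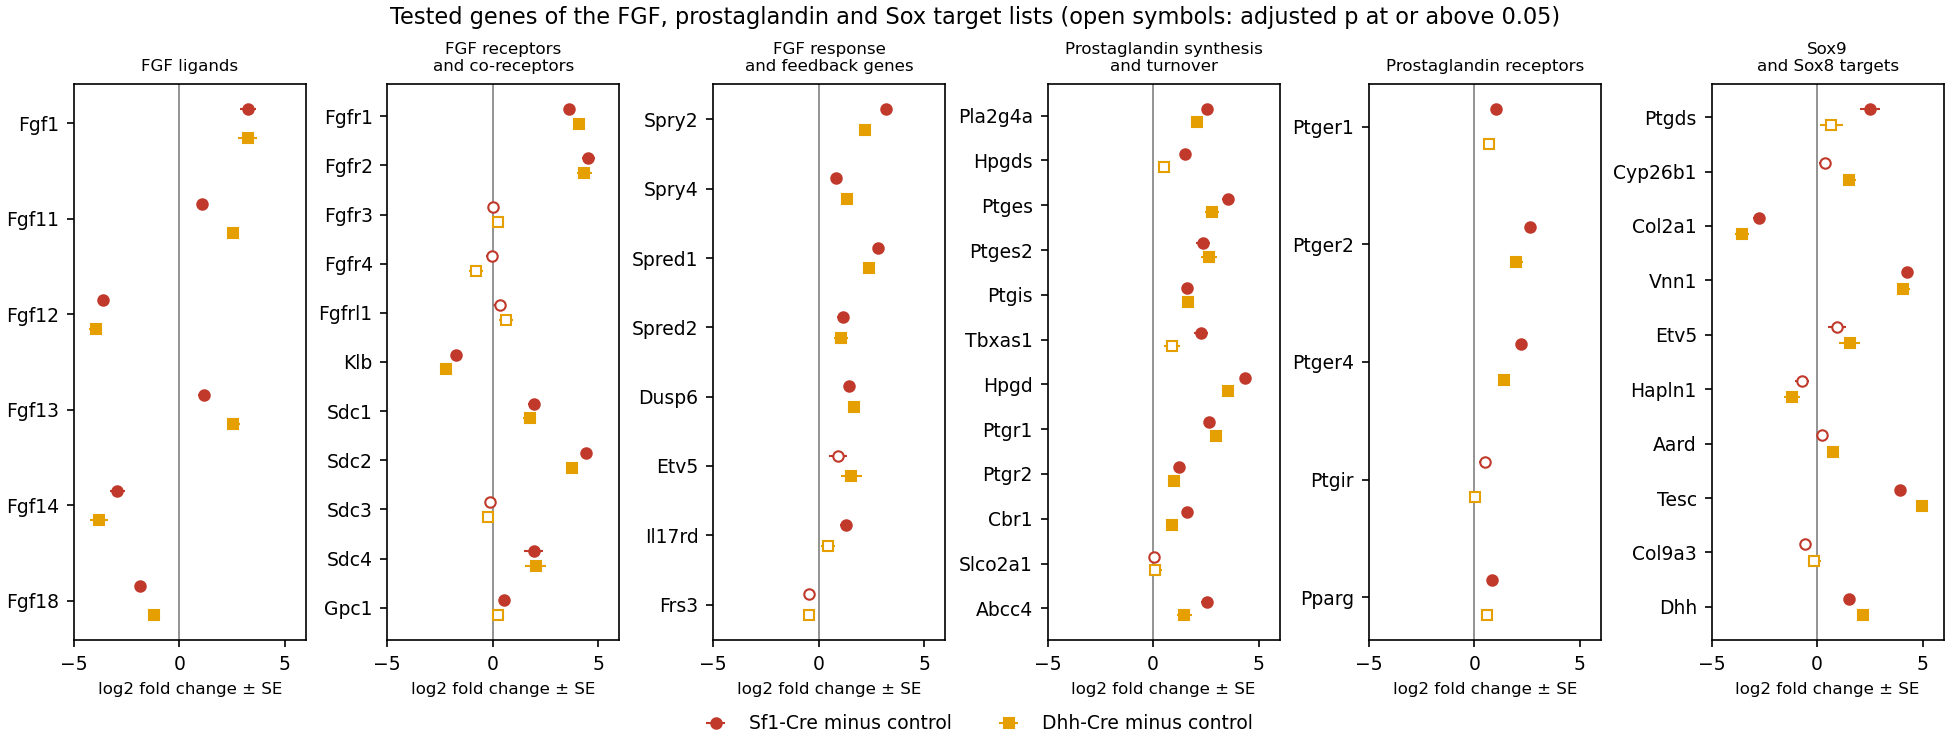
Log2 fold change ± SE from control of each tested gene of 6 lists, in Sf1-Cre (circles) and in the Dhh-Cre-labelled arrays (squares), with open symbols where the limma adjusted p is 0.05 or above. Fgfr1, Fgfr2 and most prostaglandin genes lie to the right in both groups, Fgf12, Fgf14 and Col2a1 to the left, and Ptgds parts between the groups.

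Between the Cre groups, fewer of these genes passed. Genes listed as SOX9 and SOX8 targets were lower in Sf1-Cre at 4 of 10 and higher at 1, which is Ptgds, with a median of -0.47 beside -0.0053 over all tested probe sets, of which 11.2% were lower and 10.2% higher. Tesc was 1.04 lower in Sf1-Cre on the log2 scale, Cyp26b1 1.14 lower and Dhh, the signal Sertoli cells send to Leydig cells, 0.65 lower. Among ligands Fgf11 was 1.46 lower and Fgf13 1.38 lower, and Sox10 was 1.76 lower. Prostaglandin genes were higher in Sf1-Cre at 5 of 12, beside the same 10.2%, with Hpgds 1.02 and Tbxas1 1.37 higher, and Spry2 was 0.98 higher. Hpgds, which is among those 5, entered the tests through Sf1-Cre alone, the group where it is high. Sox10 entered through the Dhh-Cre-labelled arrays alone, where it is high. Foxl2, the ovarian factor that opposes Sox9, was 5.64-fold higher in Sf1-Cre (2.49 ± 0.42 SE, adjusted p = 0.00593), at log2 7.13 to 8.68 against 5.82 and 5.23 in the Dhh-Cre-labelled arrays. The controls lay at 1.95 and 1.80, under the floor, so Foxl2 was above control in both Cre groups. Of 8 tested genes listed as ovarian antagonists of the loop, 7 were higher than control in each Cre group. The background was 45.9% and 49.1% of all tested probe sets, and either centring by gene deviations made 1 lower in each group. Fst, an inhibitor of activin of the ovary, was 1.27 higher in Sf1-Cre than in the Dhh-Cre-labelled arrays. Without Dhh-Cre replicate 1 the differences of Tesc, Dhh, Fgf13, Sox10, Hpgds, Tbxas1, Spry2 and Fst no longer passed (limma adjusted p from 0.0571 to 0.181), nor did that of Cyp26b1 without replicate 2 (0.110). The SOX target count was 1 lower without either Dhh-Cre-labelled array, and with Sertoli centring by gene deviations 0 were lower and 3 higher. The prostaglandin count was 0 without Dhh-Cre replicate 1, 2 without Sf1-Cre replicate 2 or 3, and 3 with housekeeping and 8 with Sertoli centring by gene deviations. The background moves with these centrings by gene deviations. Of all 25761 tested probe sets, 2116 were higher and 3041 lower in Sf1-Cre with housekeeping centring, and 8721 and 1138 with Sertoli centring. Sox9 and Sox8 passed between the Cre groups in all 24 and 23 alternatives that gave a value. Not all of these are separate fits, since for this comparison leaving out either control gives the fit of only those 2 groups.

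The genes whose levels ran most like each member's were found by Pearson's r of log2 values over the 8 arrays, among 12771 genes. The arrays share their 3 groups, so r is a description of likeness and carries no test. Sox9 was followed most closely by Exoc5, a gene of the exocyst that tethers vesicles (r = 0.996), and by Mtmr7, Slc18a1, Mpzl1 and Crabp1, the last encoding a retinoic acid-binding protein (r = 0.981). Exoc5 averaged log2 8.96 in Sf1-Cre, 10.74 in the Dhh-Cre-labelled arrays and 8.19 in the controls. For Sox8 they were Lhfp (r = 0.996), Gprasp2, Slc30a4, a zinc transporter gene, Ccdc160 and Arap2 (r = 0.991). Fgf9 ran with Dpp6, encoding an auxiliary subunit of potassium channels (r = 0.994), Pinlyp, Sec24b, Mapk8ip1 and Lipf (r = 0.988). Ptgds had less close companions, led by Hey1, a target of Notch signalling (r = 0.979), then Adprm, Serpinb8, Mettl17 and Rwdd2b (r = 0.945). Hey1 averaged log2 5.67 in Sf1-Cre, 5.19 in the Dhh-Cre-labelled arrays and 4.89 in the controls.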

How the data were processed

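Total RNA of 8 testis samples was hybridized to 1-colour arrays, per the labels' protocols. The deposited intensity values were made by the authors with GCRMA, per the submitters' processing notes, with a version not given in the sources used here. Deposited values are linear, so log2 was applied. After 64 array control probe sets were left out, limma 3.58.1 (R 4.3.3) estimated 3 group means from all 8 arrays, with 5 residual degrees of freedom, with 2-sided p-values adjusted by Benjamini and Hochberg. Errors beside fold changes are standard errors (SE). A fold against a mean under log2 4 is a lower bound against that floor. Of the probe sets, 34958 carry 1 gene symbol, 932 several and 9211 none listed, and 34754 were updated by Entrez identifier to GRCm38.p6. A gene of a list was read from its brightest probe set. Sequences are RefSeq's.

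The members, lists and marker genes were chosen with earlier results of these data known. Named genes are the members, fixed genes of the loop, up to 4 per list with the lowest adjusted p in Sf1-Cre against control or between the Cre groups, and the 5 genes most like each member. Not every gene the rule names is given with values, and other genes that spell out a count were chosen after their values were seen.

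Alternatives were quantile normalization, centring on housekeeping or Sertoli genes, other filters, feature rules, moderation, weights, thresholds and groups in the fit, a replicate block, and leaving out each array. For genes other than the members they were run on the differences the text gives. Centring on the median level, as planned, moved Sf1-Cre against control by 1.70 (housekeeping) and 2.17 (Sertoli), more than the lists' own median changes of 0.72 and 0.82. Centring by gene deviations, added after seeing the data, moved it by 0.80 and 0.75. Same-numbered samples showed no steady shared deviation (r from -0.177 to 0.258), and replicate numbers were not used as pairs in the main fit. In groups of 2 arrays the deviations mirror each other, so this check cannot exclude a pairing. The fits were checked on simulated data. The number of arrays limits the precision.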

Additional observations from a re-analysis of the deposited data

Results flagged for a closer look

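In 4 genes 1 Sf1-Cre array lay far from the other 3 (Dixon's ratio of its gap to the group's range), among 46 genes and probe sets screened, where chance marks about 1 group in 20. Spry2 was at log2 8.39 in replicate 1 against 8.88 to 8.96 in the others (ratio 0.855). Etv5 was at 6.79 in replicate 2 against 5.95 to 5.99 (ratio 0.953). Pla2g4a was at 5.23 in replicate 3 against 4.76 to 4.82 (ratio 0.871). Ptger4 was at 8.97 in replicate 1 against 8.51 to 8.58 (ratio 0.847). No tested probe set of Sox9, Sox8, Fgf9 or Ptgds was marked in this way.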

How the results depend on the processing

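Values are log2 fold changes. Fgf9 against control, and Sox9 and Sox8 between the Cre groups, passed under each alternative that gave a value. A filter at log2 6 left out Sox8 and Fgf9, and the filter at log2 4 let Fgf9 in through the controls alone. Sox9 in Sf1-Cre against control was 0.64 with quantile normalization, 0.26 with the mean of all probe sets, 0.68 with replicate numbers as a block (adjusted p = 0.0571), -0.87 and -1.35 with housekeeping and Sertoli centring on the median level, 0.018 and 0.074 by gene deviations, and 0.58 to 1.07 with 1 array left out. Sox8 there was 0.58 with the block (adjusted p = 0.0571), -1.12 and -1.59 centred on the median level, -0.22 and -0.17 by gene deviations, 0.078 with low values set to log2 4, 0.46 without the 3 arrays high in Spink8, and 0.40 to 0.76 with 1 array left out. The median-level values of Sox9 and Sox8 in Sf1-Cre passed the threshold in the opposite direction to the main result. The block gave 17515, 19569 and 4541 calls in the 3 comparisons. At adjusted p under 0.01, Sox9 (0.82) and Sox8 (0.58) in Sf1-Cre and Ptgds between the Cre groups (1.84) no longer passed. Ptgds in Sf1-Cre was 0.82 and 0.34 centred on the median level, no longer past the threshold. In the Dhh-Cre-labelled arrays, median-level centring gave Sox8 0.38 (housekeeping) and -0.10 (Sertoli), Sox9 0.61 (Sertoli), Ptgds 1423859_a_at -1.02 and -1.50 and 1423860_at -1.29 and -1.77. Centring by gene deviations gave these Ptgds probe sets -0.080 and -0.35 (housekeeping) and -0.55 and -0.82 (Sertoli). Without the arrays high in Spink8 they were -0.15 and -0.19, and Fgf9 between the Cre groups was -0.078. With 1 array left out, Ptgds in the Dhh-Cre-labelled arrays ran from -0.15 to 1.49 (1423859_a_at) and -0.19 to 1.01 (1423860_at). Between the Cre groups Ptgds was 1.84 (adjusted p = 0.0545) with only those 2 groups fitted and 1.02 to 2.66 with 1 array left out, where a lone array is assumed to vary like the others. Centred on the median level, housekeeping and then Sertoli, Wt1 gave -0.88 and -1.36 in Sf1-Cre and -0.44 and -0.92 in the Dhh-Cre-labelled arrays, Dusp6 -0.26 and -0.73, then -0.028 and -0.51, and Etv5 -0.77 and -1.25, then -0.15 and -0.63. Wt1 and Etv5 are themselves on the Sertoli list. Hpgds gave -0.18 and -0.65 in Sf1-Cre and -1.19 and -1.67 in the Dhh-Cre-labelled arrays, Fgfr3 -1.67 and -2.15, then -1.46 and -1.94, and Spry4 -0.86 and -1.33, then -0.34 and -0.82. Tbxas1 in the Dhh-Cre-labelled arrays gave -0.79 and -1.27 and Ptger4 -0.29 and -0.77, and with Sertoli centring alone Sox4 gave -0.47, Pla2g4a -0.10 and Ptger2 -0.18. Centred by gene deviations, Fgfr3 gave -0.78 and -0.72 in Sf1-Cre and -0.52 and -0.99 in the Dhh-Cre-labelled arrays, and in the Dhh-Cre-labelled arrays Hpgds gave -0.25 and -0.72 and Tbxas1 -0.32 (Sertoli). Against a difference near 0 in Sf1-Cre, Fgfr3 was -0.20 with quantile normalization, -0.0023 with the block and -0.022 to 0.072 with 1 array left out, and Fgfr4 was 0.014 with low values set to log2 4, 0.010 without the arrays high in Spink8 and -0.22 to 0.13 with 1 array left out. In the Dhh-Cre-labelled arrays Dmrt1 gave -0.14 and -0.62 and Cyp26b1 -0.17 and -0.65, centred on the median level, housekeeping and then Sertoli. The causes were not tested. Calls were 19983 in Sf1-Cre, 20081 in the Dhh-Cre-labelled arrays and 5508 between the Cre groups. They were 11019, 10986 and 3402 with 1 probe set a gene and 10366, 10399 and 3357 with the mean of probe sets, which test fewer features. Between the Cre groups they were 3378 with Sertoli centring on the median level, 9859 by gene deviations, 2089 at adjusted p under 0.01, 1151 without the arrays high in Spink8, and 1862 to 5998 with 1 array left out (1862 without Dhh-Cre replicate 1, 3272 without replicate 2). The share of calls that were higher was 59.2% in Sf1-Cre and 63.0% in the Dhh-Cre-labelled arrays, 35.6% and 42.7% with housekeeping centring by gene deviations, and 37.1% and 27.7% with Sertoli centring. Between the Cre groups it was 47.8%, and 88.5% with Sertoli centring by gene deviations. Sox8 and Fgf9 lie at or under the floor in most arrays, so their folds are bounds.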
